A study of Homo sapiens with 9 samples.

Results

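The genes that license, start and carry out DNA replication, together with those that supply its nucleotides and histones, were followed as a set of 49 named genes, of 58734 genes in the count table. They were chosen by name, as replication licensing, fork and nucleotide synthesis genes known as S-phase targets of the E2F transcription factors, and all 49 had enough counts to be tested. Polyadenylated RNA was sequenced from HEK293T, a line of human embryonic kidney origin that expresses the large T antigen of SV40, a viral protein that binds the retinoblastoma family and p53. The 3 groups were cells given 10 nM of a control siRNA, of siRNA against SIN3A or of siRNA against SIN3B for 36 h with a lipid reagent, with 3 libraries each. SIN3A and SIN3B are paralogous scaffolds of a histone deacetylase complex. The labels do not say whether the 3 libraries of a group came from separate transfections, and the p-values then reflect only how far these libraries lie apart, which can be technical. In bulk RNA, fewer cells in S phase and less of a transcript per cell cannot be told apart.

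Replication is licensed in G1 phase, when the origin recognition complex, CDC6 and CDT1 load the MCM2-7 helicase onto DNA in an inactive form. At the G1/S boundary the kinase CDC7, activated by its regulatory subunit DBF4, and the cyclin-dependent kinases bring CDC45 and the GINS complex to MCM2-7, which makes the active CMG helicase. DNA polymerase alpha with primase then starts each strand, and polymerases delta and epsilon extend it with the sliding clamp PCNA, which replication factor C loads. Ribonucleotide reductase, thymidine kinase and thymidylate synthase provide the deoxynucleotides. E2F factors raise the transcription of most of these genes as cells enter S phase, and complexes that contain pocket proteins or SIN3 are known to repress E2F targets in resting cells.

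Library totals ran from 22542798 to 27084884 counts, and members had 460 to 16964 counts in a library. Levels are TMM-scaled CPM, which are counts relative to a common library size, and the ± of a log2 fold change is its standard error (SE). SIN3A was at 141, 147 and 148 CPM in control and 44.9, 49.9 and 47.0 CPM in SIN3A knockdown libraries, so 32.5% was left. SIN3B was at 100.4, 97.0 and 91.1 CPM in control and 59.2, 53.8 and 52.3 CPM in SIN3B knockdown libraries, so 57.3% was left. Libraries of the SIN3A knockdown lay further apart than those of the other groups, and its replicate 1 stood apart. A chi-square over its degrees of freedom was 3.77 to 7.98 for its pairs, against 1.46 to 2.07 for the others. It was taken on counts divided by 4, over genes with enough counts in the pair. Replicate 1 of the SIN3A knockdown held the highest value of its group in 28 of 49 members and the lowest in 7. Such an order was not particular to it. Replicate 3 of the SIN3A knockdown held the lowest value in 27 and the highest in 9, and control replicate 1 the lowest of its group in 25. All 8 HEK293T marker genes passed the filter, and summed to 974 to 1357 CPM over the 9 libraries. Of 6 genes each, the fibroblast markers summed to 25.3 to 37.5 CPM with COL1A2 and DCN at 0, the haematopoietic markers to 3.09 to 7.72 CPM with PTPRC, CD3E and HBB at 0, and the squamous markers to 0 to 1.59 CPM with TP63, KRT6A and DSG3 at 0.

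Most replication genes were called in neither knockdown. A called gene is one with an edgeR adjusted p under 0.05, adjusted over all 16686 genes tested. In the SIN3A knockdown 9 members rose and 3 fell against control, or 24.5% of the 49, where 23.0% of all genes were called (12.2% higher and 10.8% lower). In the SIN3B knockdown 5 rose and 5 fell, or 20.4%, where 23.6% of all genes were called (12.0% higher and 11.6% lower). Both shares were near the background here, but not in every setting. With offsets for exon length and GC content, 38.8% of members were called in the SIN3A knockdown, where 25.7% of all genes were, and 34.7% in the SIN3B knockdown, where 21.2% were. DESeq2 was run on 26825 genes with any count, in place of 16686. It called 26.5% and 32.7% of members, and 14.6% and 15.1% of those genes. These backgrounds are not comparable with those of the filtered fits. With no filter, edgeR called 14.9% and 15.2% of as many genes, and 20.4% and 18.4% of members. A fit of only the 6 control and SIN3B libraries called 7 members higher and 17 lower, or 24 of 49, where 33.0% of all genes were called (17.0% higher and 16.1% lower). The median log2 fold change of the members was 0.08 and -0.02, with all genes at 0.00 and -0.02. Between the knockdowns themselves 18 members (36.7%) were called, 14 higher and 4 lower with SIN3A reduced, where 27.1% of all genes were called (14.5% higher and 12.6% lower). With upper-quartile in place of TMM scaling, 4 members rose and 4 fell in the SIN3A knockdown, and 2 rose and 11 fell in the SIN3B knockdown. In the direct comparison 11 were then higher and 5 lower. All genes shifted too, to 8.10% higher and 13.9% lower (SIN3A), 10.1% and 13.7% (SIN3B), and 12.9% and 14.6% (direct). The median of all genes then stood at -0.07 (SIN3A) and -0.05 (SIN3B), and that of the members at 0.01 and -0.06. The counts rest on the robust form of the edgeR fit: in its plain form 7 members rose in the SIN3A knockdown and 12 were higher in the direct comparison, and the other counts were the same.

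**Figure D1:**
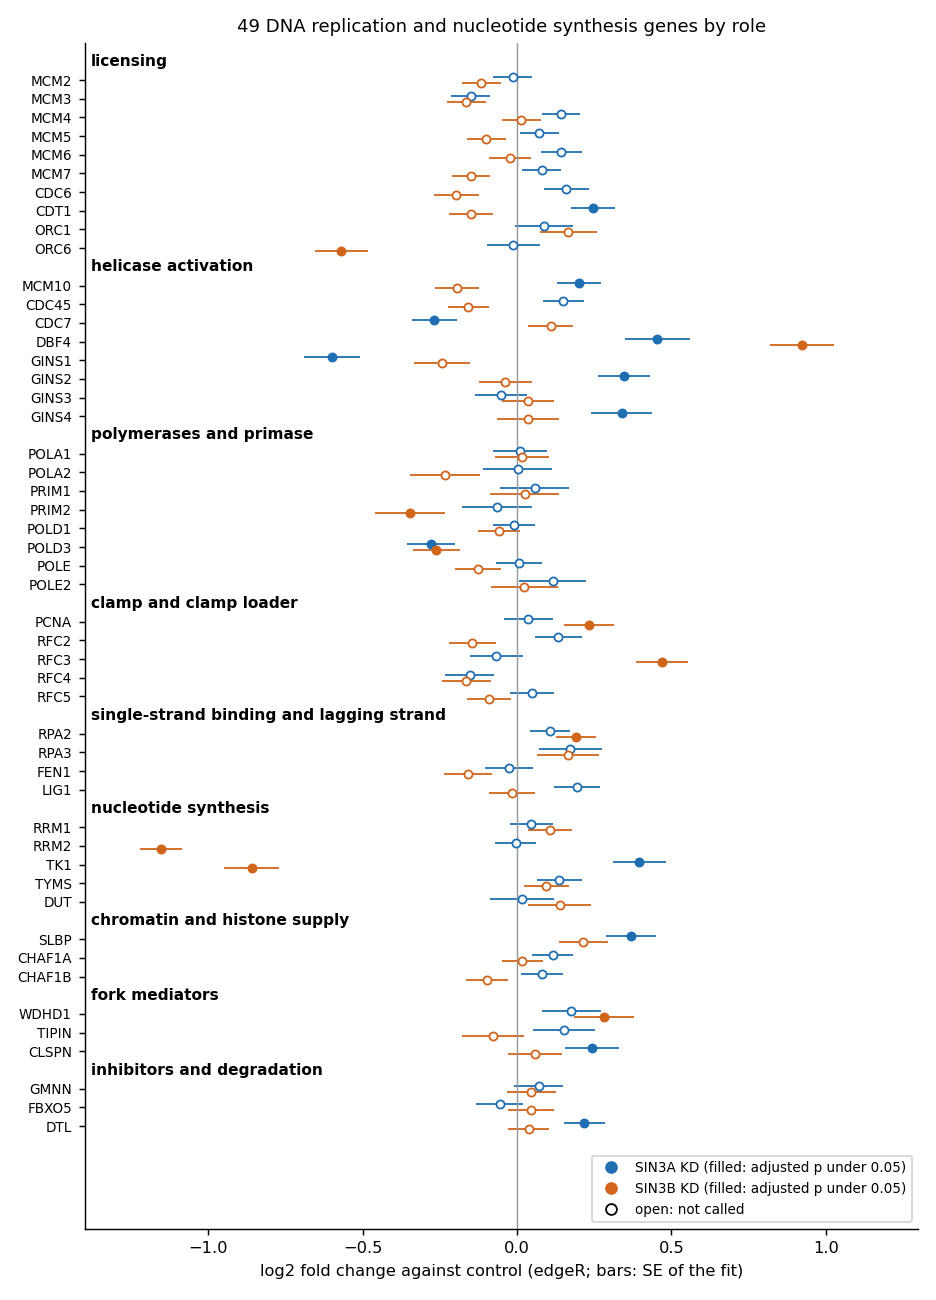
Log2 fold change against control of all 49 members, grouped by role, in the SIN3A (blue) and SIN3B (orange) knockdown, with the SE of the fit as bars and filled points for called genes. Most points lie near 0, and RRM2 at -1.15, TK1 at -0.86 and DBF4 at 0.92 in the SIN3B knockdown lie furthest out.

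The largest changes lay in a few members, and few were called in both knockdowns. Only DBF4 rose in both, only POLD3 fell in both and only TK1 was called in opposite directions. A further 7 members rose and 2 fell in the SIN3A knockdown alone, 4 rose and 3 fell in the SIN3B knockdown alone, and 30 were called in neither, although a call in a single knockdown is no test of the difference between them. The knockdowns share the 3 control libraries. The share of all genes called in both knockdowns is not given here, so these counts only describe the members. Just 1 member passed 1.5-fold in the SIN3A knockdown (GINS1) and 3 in the SIN3B knockdown (RRM2, TK1 and DBF4), and RRM2 in the SIN3B knockdown was the 1 value past 2-fold. Among all 16686 genes tested, 3333 (SIN3A) and 3147 (SIN3B) passed 1.5-fold, and 1307 and 972 passed 2-fold. The median absolute log2 fold change was 0.116 and 0.139 in members, against 0.255 and 0.252 in all genes. The latter include genes with fewer counts than any member. Per kilobase of annotated exon, levels in the control libraries ran from 4.04 CPM for POLA2, a subunit of polymerase alpha, to 194 CPM for PCNA.

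Letters of the E2F binding motif stood in most of the promoters searched. The members were chosen as known E2F targets, so this is no independent finding. RefSeq promoter windows (GRCh38.p14, 250 bases before to 50 after the start) were matched for 43 of the 49 members and searched on both strands for the E2F letters TTTGGCGC, TTTCGCGC, TTCCCGCC, TTTCCCGC and TTTGGCGG, which overlap each other in some windows. At least 1 of them stood in 27 of 43 members (62.8%), against 9.26% of 10900 promoters of tested genes. The CCAAT box, CCAAT, stood in 21 of 43 (48.8%, against 36.7%) and the cell-cycle homology letters TTTGAA or TTCGAA in 3 of 43 (6.98%, against 10.8%). Among members with a window, E2F letters stood in 5 of 8 that rose and 2 of 2 that fell in the SIN3A knockdown, in 2 of 4 that rose and 0 of 4 that fell in the SIN3B knockdown, and in 18 of 27 called in neither. A match is a description of these letters, and no match says only that they are not in this window. The lines below show the E2F and CCAAT letters in capitals, 5′ to 3′ on the strand of the gene, for 3 members with E2F letters and for the 3 members that fell furthest in the SIN3B knockdown. CDT1 is at chr16:88803748-88803777, CDC6 at chr17:40287840-40287869, PCNA at chr20:5126627-5126746 (minus strand), RRM2 at chr2:10122660-10122689, ORC6 at chr16:46689523-46689642 and TK1 at chr17:78187234-78187316 (minus strand). Shorter lines are given where an annotated exon covers the window.
CDT1: gcgcccGCGGGAAATTTGGCGGGAAccgcg
CDC6: cgaggccgggcTTTGGCGGgaggtgggaac
PCNA: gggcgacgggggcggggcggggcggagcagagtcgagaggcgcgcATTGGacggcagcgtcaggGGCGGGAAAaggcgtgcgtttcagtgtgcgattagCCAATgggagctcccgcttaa
RRM2: cggggcaccaaagCCAATgggaagggccgg
ORC6: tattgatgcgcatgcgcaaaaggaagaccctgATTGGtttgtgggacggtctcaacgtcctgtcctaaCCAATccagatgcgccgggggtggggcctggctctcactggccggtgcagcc
TK1: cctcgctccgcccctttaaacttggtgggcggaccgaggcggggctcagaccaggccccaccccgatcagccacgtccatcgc
RRM2 held 3 CCAAT boxes in its whole window, of which 1 is shown, and no E2F letters. ORC6 held 2 CCAAT boxes and TK1 none of the letters searched.

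Of the 5 nucleotide synthesis genes, 2 fell in the SIN3B knockdown, where 11.6% of all genes fell. In the SIN3A knockdown 1 rose, where 12.2% of all genes rose. RRM2 (ENSG00000171848, chromosome 2, 10120698 to 10131419 on the plus strand) encodes the small, cell-cycle regulated subunit of ribonucleotide reductase, which makes deoxynucleotides from ribonucleotides. RRM2 was at 150.1, 149 and 145 CPM in the control libraries, 153, 139 and 150.3 CPM in SIN3A knockdown libraries and 67.7, 66.4 and 65.6 CPM in SIN3B knockdown libraries. All 3 SIN3B libraries lay below the other 6, which overlapped, and 45.0% of the control level was left. Its log2 fold change was -1.15 ± 0.07 (SE, edgeR adjusted p = 9.4e-10) in the SIN3B and 0.00 ± 0.07 (SE, edgeR adjusted p = 0.97) in the SIN3A knockdown. The large subunit, RRM1, did not follow it. RRM1 was at 241, 242 and 239 CPM in the control libraries, 277, 243 and 226 CPM in SIN3A knockdown libraries and 258, 255 and 265 CPM in SIN3B knockdown libraries, with log2 fold changes of 0.05 ± 0.07 and 0.11 ± 0.07 (edgeR adjusted p = 0.69 and 0.31). RRM2 shares 20.2% of its exon bases with a read-through gene on the same strand, AC007240.1, which had a mean of 2.36 CPM, and the annotation names 3 pseudogenes of it.

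TK1 (ENSG00000167900, chromosome 17, 78174075 to 78187233 on the minus strand) encodes the thymidine kinase of the salvage route. TK1 was at 108, 113 and 105 CPM in the control libraries, 165, 139 and 126 CPM in SIN3A knockdown libraries and 61.6, 57.0 and 61.3 CPM in SIN3B knockdown libraries. Every SIN3A library was above and every SIN3B library below the 3 control libraries, and replicate 1 of the SIN3A knockdown was the highest. TK1 rose by 0.40 ± 0.09 on the log2 scale in the SIN3A knockdown (edgeR adjusted p = 0.0026) and fell by 0.86 ± 0.09 in the SIN3B knockdown (edgeR adjusted p = 1.1e-06). Without replicate 1 of the SIN3A knockdown its log2 fold change there was 0.30 (edgeR adjusted p = 0.00362). The remaining 2 members of the group were called in neither knockdown. TYMS, thymidylate synthase, had log2 fold changes of 0.14 ± 0.07 and 0.09 ± 0.07, and DUT, the dUTPase that keeps uracil out of DNA, 0.02 ± 0.10 and 0.14 ± 0.10. Whether counting used the strand is not given in the sources used here, and ENOSF1 on the opposite strand covers 39.1% of the exon bases of TYMS, so its value is uncertain. DUT is uncertain too, with 8 annotated pseudogenes.

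**Figure D2:**
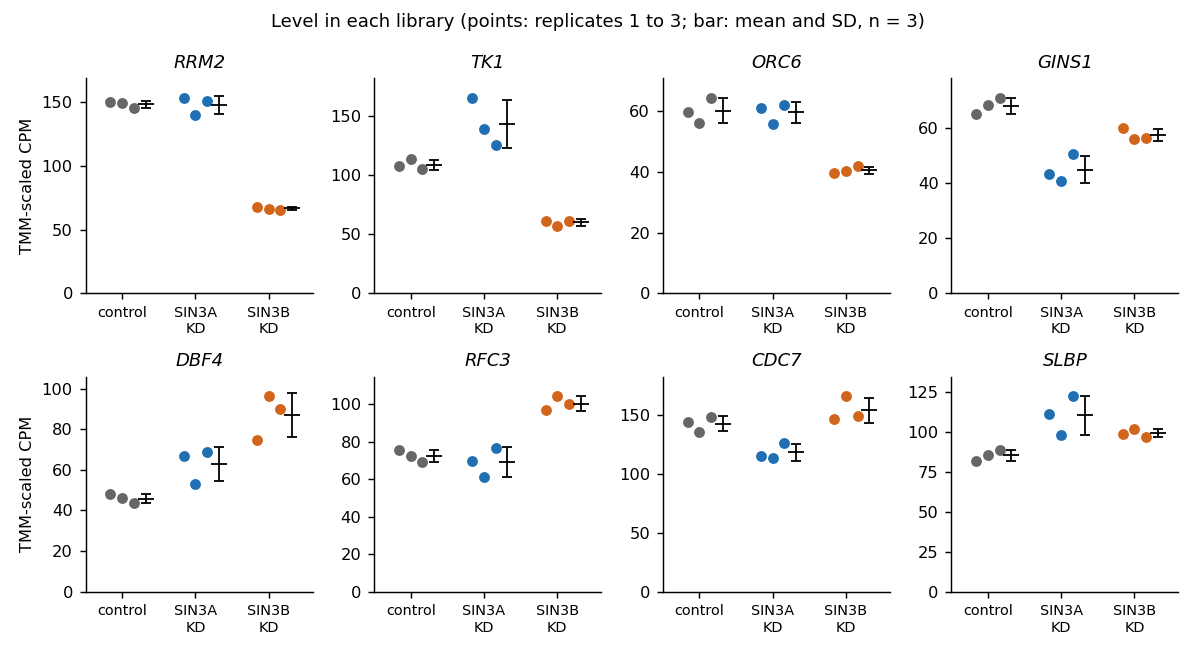
TMM-scaled CPM of 8 members in each library (points) with the group mean and SD (bars, n = 3), on axes that start at 0. The 3 SIN3B knockdown libraries lie below all others for RRM2, TK1 and ORC6 and above all others for DBF4 and RFC3, and the 3 SIN3A knockdown libraries lie lowest for GINS1 and CDC7.

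Of the 10 licensing genes, 1 rose in the SIN3A knockdown (CDT1), where 12.2% of all genes rose. In the SIN3B knockdown 1 fell (ORC6), where 11.6% of all genes fell. ORC6 (ENSG00000091651, chromosome 16, 46689643 to 46698394 on the plus strand) encodes the smallest subunit of the origin recognition complex. ORC6 was at 59.7, 56.2 and 64.2 CPM in the control libraries, 60.9, 55.7 and 62.0 CPM in SIN3A knockdown libraries and 39.6, 40.1 and 41.7 CPM in SIN3B knockdown libraries. The SIN3B libraries lay below all others, and those of the SIN3A knockdown overlapped the controls. ORC6 fell by 0.57 ± 0.09 on the log2 scale in the SIN3B knockdown (edgeR adjusted p = 9.1e-05) and stood at -0.01 ± 0.09 (SE, edgeR adjusted p = 0.94) in the SIN3A knockdown. ORC1, the subunit whose level follows the cell cycle, was at 0.09 ± 0.09 and 0.17 ± 0.09 (edgeR adjusted p = 0.55 and 0.23). CDT1, which loads MCM2-7 and is destroyed in S phase, gave 160.2, 162 and 173 CPM in control, 207, 195 and 185 CPM in SIN3A knockdown and 160.1, 138 and 147 CPM in SIN3B knockdown libraries. Its SIN3A libraries lay above the controls, and its SIN3B libraries lay below them, replicate 1 by the smallest margin, with log2 fold changes of 0.25 ± 0.07 (SE, edgeR adjusted p = 0.016) and -0.15 ± 0.07 (SE, edgeR adjusted p = 0.15). The rise of CDT1 was not called with upper-quartile scaling, at 0.18 (edgeR adjusted p = 0.0878), or without control replicate 1, at 0.23 (edgeR adjusted p = 0.0748), or 2, at 0.23 (edgeR adjusted p = 0.0698). CDT1 also passed the test in the SIN3B knockdown without replicate 1 of that group, at -0.22 (edgeR adjusted p = 0.0478), and with only the 6 libraries compared, at -0.15 (edgeR adjusted p = 0.0342).

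All 6 subunits of the MCM2-7 helicase were called in neither knockdown. Their log2 fold changes ran from -0.15 (MCM3) to 0.14 (MCM6) in the SIN3A knockdown and from -0.16 (MCM3) to 0.01 (MCM4) in the SIN3B knockdown, each with an SE of 0.06 or 0.07. MCM7 was at 607, 625 and 629 CPM in the control libraries, 681, 663 and 622 CPM in SIN3A knockdown libraries and 577, 541 and 560.5 CPM in SIN3B knockdown libraries. In MCM7 the control and SIN3A libraries overlapped and the SIN3B libraries lay below both, at -0.15 ± 0.06 (SE, edgeR adjusted p = 0.096). In the SIN3A knockdown MCM3 passed the test without replicate 1 of that group, at -0.16 (edgeR adjusted p = 0.0245), as did MCM4, at 0.18 (edgeR adjusted p = 0.00837). With SIN3B reduced, both MCM3 and MCM7 passed it without that library, at -0.16 (edgeR adjusted p = 0.0114) and -0.14 (edgeR adjusted p = 0.0122). MCM3 also passed there without replicate 3 of the SIN3A knockdown, at -0.16 (edgeR adjusted p = 0.0358), and both passed in 4 other settings, among them DESeq2 and upper-quartile scaling. In the SIN3A knockdown MCM3 passed in 2 other settings (-0.22 to -0.18, adjusted p of 0.0234 to 0.029) and MCM4 in 2 other settings (0.15 to 0.19, adjusted p of 0.0123 to 0.0275). CDC6, the loading ATPase, had values of 0.16 ± 0.07 (SE, edgeR adjusted p = 0.12) and -0.20 ± 0.07 (SE, edgeR adjusted p = 0.056). It passed in the SIN3B knockdown without control replicate 2, at -0.25 (edgeR adjusted p = 0.0444), or SIN3A knockdown replicate 1, 2 or 3, at -0.19 (edgeR adjusted p = 0.00813), -0.20 (edgeR adjusted p = 0.0492) and -0.19 (edgeR adjusted p = 0.0408), and in 6 other settings (-0.24 to -0.19, adjusted p of 0.00293 to 0.0436). MCM7 shares 8.94% of its exon bases with AP4M1 on the opposite strand.

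Of the 8 genes that turn MCM2-7 into an active helicase, 4 rose and 2 fell in the SIN3A knockdown, where 23.0% of all genes were called. In the SIN3B knockdown 1 rose and 0 fell, where 23.6% of all genes were called. Among the 6 calls in the SIN3A knockdown, that of MCM10 was lost in 18 of 21 alternative settings, GINS4 in 5 and CDC7 in 1. CDC7 and DBF4 form the kinase that triggers origin firing, and their transcripts went opposite ways when SIN3A was reduced. DBF4 (ENSG00000006634, chromosome 7, 87876216 to 87909541 on the plus strand) is the regulatory subunit. DBF4 was at 48.0, 46.1 and 43.5 CPM in the control libraries, 66.7, 53.2 and 68.7 CPM in SIN3A knockdown libraries and 74.9, 96.2 and 89.9 CPM in SIN3B knockdown libraries. All knockdown libraries were above the controls, with those of the SIN3B knockdown the highest, and the log2 fold changes were 0.45 ± 0.11 (SE, edgeR adjusted p = 0.004) and 0.92 ± 0.11 (SE, edgeR adjusted p = 3.7e-06). CDC7 (ENSG00000097046, chromosome 1, 91500893 to 91525764 on the plus strand) is the catalytic subunit. CDC7 was at 144, 135 and 148 CPM in the control libraries, 115, 113 and 126 CPM in SIN3A knockdown libraries and 146, 166 and 149 CPM in SIN3B knockdown libraries. Its SIN3A libraries lay below all control libraries and its SIN3B libraries overlapped them, with log2 fold changes of -0.27 ± 0.07 (SE, edgeR adjusted p = 0.011) and 0.11 ± 0.07 (SE, edgeR adjusted p = 0.32). The fall of CDC7 was not called without control replicate 3, at -0.23 (edgeR adjusted p = 0.0813), and it stood at -0.43 (edgeR adjusted p = 3.75e-05) with offsets for exon length and GC content.

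The 4 GINS subunits, which act as a single complex, also parted in the SIN3A knockdown. GINS1 (ENSG00000101003, chromosome 20, 25407727 to 25452628 on the plus strand) fell by 0.60 ± 0.09 on the log2 scale (edgeR adjusted p = 0.0001), from 65.1, 68.2 and 70.9 CPM in the control libraries to 43.4, 40.8 and 50.6 CPM, while the SIN3B libraries were at 59.9, 56.1 and 56.5 CPM (-0.24 ± 0.09 (SE, edgeR adjusted p = 0.055)). The 3 groups of GINS1 did not overlap, with the controls highest and the SIN3A knockdown lowest. GINS2 rose by 0.35 ± 0.08 (edgeR adjusted p = 0.0058), from 97.5, 107 and 106 to 152, 125 and 118 CPM, with replicate 1 the highest, and GINS4 by 0.34 ± 0.10 (edgeR adjusted p = 0.018). GINS3 was at -0.05 ± 0.08 (edgeR adjusted p = 0.72). In the SIN3B knockdown GINS2, GINS3 and GINS4 were at -0.04, 0.04 and 0.04, and 0 of the 11 CMG subunits (MCM2-7, CDC45 and GINS) were called there by edgeR over all 9 libraries, with 4 at an unadjusted p under 0.05. The fit of only the 6 control and SIN3B libraries called 5 of the 11 lower: MCM2, MCM3, MCM7, CDC45 and GINS1, at -0.11, -0.16, -0.15, -0.16 and -0.24. Upper-quartile scaling called 4 lower, DESeq2 called 3 and limma on FPKM called 0. GINS1 passed the test in the SIN3B knockdown when any 1 of the SIN3A knockdown libraries was left out, at -0.235, -0.243 and -0.241 (edgeR adjusted p = 0.036, 0.04 and 0.025). The rise of GINS4 was not called without control replicate 1, at 0.29 (edgeR adjusted p = 0.0981), or SIN3A knockdown replicate 2, at 0.24 (edgeR adjusted p = 0.0999), nor in 3 other settings (0.27 to 0.33, adjusted p of 0.0507 to 0.057), which were upper-quartile scaling and both limma settings.

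MCM10, a replication initiation factor that binds CDC45 and MCM2-7, gave 112, 117 and 105 CPM in control, 129, 127 and 127 CPM in SIN3A knockdown and 93.0, 96.0 and 103 CPM in SIN3B knockdown libraries, groups that did not overlap. It rose by 0.20 ± 0.07 on the log2 scale in the SIN3A knockdown (edgeR adjusted p = 0.044) and stood at -0.19 ± 0.07 (SE, edgeR adjusted p = 0.051) in the SIN3B knockdown. The call was near the threshold and held in 3 of 21 alternative settings. It was lost on leaving out any 1 of 8 of the 9 libraries, SIN3A knockdown replicate 1 being the exception, with log2 values of 0.18 to 0.23 and edgeR adjusted p of 0.0546 to 0.155, and in 10 other settings (0.13 to 0.21, adjusted p of 0.0531 to 0.201), lowest with upper-quartile scaling. With SIN3B reduced, MCM10 passed the test without SIN3A knockdown replicate 1, 2 or 3, at -0.19 (edgeR adjusted p = 0.0244), -0.19 (edgeR adjusted p = 0.0497) and -0.19 (edgeR adjusted p = 0.0441), and in 6 other settings (-0.28 to -0.19, adjusted p of 0.00264 to 0.0419). CDC45, the CMG subunit that arrives with GINS, was at 0.15 ± 0.07 (SE, edgeR adjusted p = 0.12) and -0.16 ± 0.07 (SE, edgeR adjusted p = 0.098). It passed in the SIN3B knockdown without SIN3A knockdown replicate 1, at -0.15 (edgeR adjusted p = 0.0274), and in 2 other settings (-0.20 to -0.16, adjusted p of 0.0131 to 0.0447). It passed in the SIN3A knockdown with offsets for exon length and GC content, at 0.22 (edgeR adjusted p = 0.0059).

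**Figure D3:**
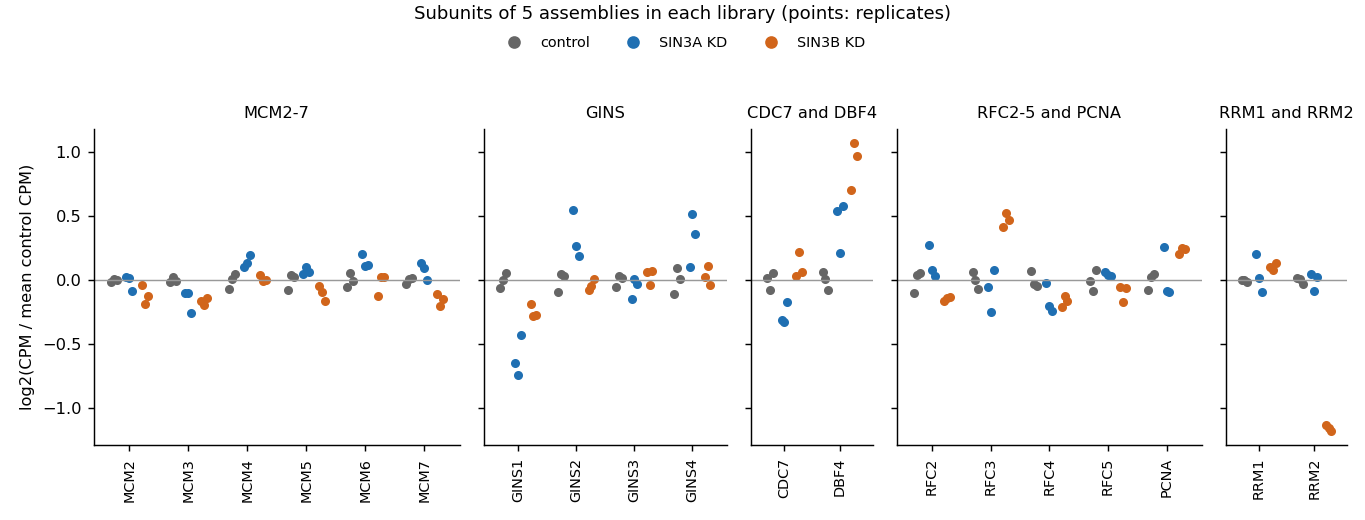
Each library's CPM relative to the mean of the control libraries (log2 scale) for the subunits of 5 assemblies, with control libraries in grey, SIN3A knockdown in blue and SIN3B knockdown in orange. The MCM2-7 subunits stay close to 0, while GINS1 lies apart from GINS2 and GINS4, CDC7 from DBF4, RFC3 from its partners and RRM2 from RRM1.

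GINS1 and POLD3 share a feature outside the promoter. Earlier work on these files had found 7-base letters in 3′ UTRs that go with lower values: GGTCTAA or AGGTCTA in the SIN3A knockdown, and ACAGCCT or CAGCCTT in the SIN3B knockdown, so these letters are no independent finding here. In GENCODE 29 transcripts, 8.27% of 13296 3′ UTRs held the first kind, 16.3% of those of genes that fell in the SIN3A knockdown and 7.13% of the others. Of the members 3 of 49 (6.12%) held it, GINS1, POLD3 and POLA1, and the first 2 of these fell. The second kind stood in 26.7% of all UTRs, in 41.1% of those of genes that fell in the SIN3B knockdown and in 24.4% of the others. Of the members, 12 of 49 (24.5%) held it. Of the 5 members that fell there, POLD3, ORC6 and PRIM2 held it and RRM2 and TK1 did not. The other 9 members with it were not called there, and 0 of the 5 that rose held it. CDC7, the third member that fell in the SIN3A knockdown, held none of the first kind. The lines below show 28 bases around the letters, in capitals, 5′ to 3′ on the transcript. They are for the called members, first in the SIN3A and then in the SIN3B knockdown. The first POLD3 line has only AGGTCTA in capitals, and GGTCTAA overlaps it from the next base. The siRNA sequences are not given in the sources used here, and what part the letters have in the values was not tested.
GINS1: gttttcagtgtacAGGTCTAccatgtca
POLD3: ctgaattgttagtAGGTCTAaacatcaa
POLD3: gtgggcaagtttcACAGCCTcaagttct
ORC6: atcaatatattgtACAGCCTaagttaat
PRIM2: ttacagctgattgCAGCCTTgaccttcc
GINS1, which stood at -0.24 in the SIN3B knockdown, held 1 copy of the second kind too.

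Of the 8 polymerase and primase subunits, 1 fell in the SIN3A and 2 in the SIN3B knockdown, where 10.8% and 11.6% of all genes fell. In this group 0 rose in either, where 12.2% and 12.0% of all genes rose. POLD3, an accessory subunit of polymerase delta, fell in both. POLD3 was at 84.3, 80.3 and 81.9 CPM in the control libraries, 67.8, 70.7 and 64.8 CPM in SIN3A knockdown libraries and 72.0, 65.1 and 68.6 CPM in SIN3B knockdown libraries. Both knockdowns lay below the controls and overlapped each other, with log2 fold changes of -0.28 ± 0.08 (SE, edgeR adjusted p = 0.013) and -0.26 ± 0.08 (SE, edgeR adjusted p = 0.017). PRIM2, the large primase subunit, gave 33.2, 26.1 and 27.7 CPM in control, 28.7, 27.5 and 27.1 CPM in SIN3A knockdown and 21.9, 21.7 and 25.0 CPM in SIN3B knockdown libraries. Its SIN3B libraries lay below all the others, and it fell by 0.35 ± 0.11 on the log2 scale there (edgeR adjusted p = 0.032), with control replicate 1 the highest library of all. The small primase subunit PRIM1 was at 0.06 ± 0.11 and 0.03 ± 0.11, and the catalytic subunits POLA1, POLD1 and POLE ran from -0.13 (POLE, SIN3B knockdown) to 0.02 (POLA1, SIN3B knockdown) over both comparisons. The highest value in the SIN3A knockdown was POLE2, of polymerase epsilon, at 0.12 ± 0.11 (edgeR adjusted p = 0.49).

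The calls of POLD3 and PRIM2 depended on single libraries. POLD3 was not called in the SIN3A knockdown without control replicate 1 or 3, at -0.26 (edgeR adjusted p = 0.0566) and -0.27 (edgeR adjusted p = 0.051). POLD3 was not called in the SIN3B knockdown without control replicate 1 or 3 or SIN3B knockdown replicate 2 or 3, with log2 values of -0.26 to -0.22 and edgeR adjusted p of 0.0541 to 0.104. PRIM2 was not called without control replicate 1 or 3 or SIN3B knockdown replicate 1 or 2, with log2 values of -0.38 to -0.24 and edgeR adjusted p of 0.0564 to 0.201. No value changed its direction.

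Of the sliding clamp and the 4 clamp loader subunits in the set, 2 rose in the SIN3B knockdown, where 12.0% of all genes rose. In the SIN3A knockdown 0 were called, where 23.0% of all genes were. RFC3 (ENSG00000133119, chromosome 13, 33818049 to 33966558 on the plus strand), a small subunit of replication factor C, stood apart from RFC2, RFC4 and RFC5. RFC3 was at 75.8, 72.4 and 69.1 CPM in the control libraries, 69.9, 61.0 and 76.7 CPM in SIN3A knockdown libraries and 96.6, 104 and 100.1 CPM in SIN3B knockdown libraries. Only the SIN3B libraries lay clear of the controls, all above them. RFC3 rose by 0.47 ± 0.08 on the log2 scale (edgeR adjusted p = 0.00046), while RFC2, RFC4 and RFC5 were at -0.14, -0.16 and -0.09 in the same comparison and were not called. With offsets for exon length and GC content RFC3 stood at 0.21 (edgeR adjusted p = 0.03) there, and was called lower in the SIN3A knockdown, at -0.23 (edgeR adjusted p = 0.0192) in place of -0.07 ± 0.09 (SE, edgeR adjusted p = 0.64). PCNA, the clamp itself, gave 271, 291 and 296 CPM in control, 342, 269.6 and 269 CPM in SIN3A knockdown and 330.3, 341 and 338 CPM in SIN3B knockdown libraries. Replicate 1 of the SIN3A knockdown was as high as the SIN3B libraries and its other replicates lay just under the lowest control. PCNA rose by 0.23 ± 0.08 in the SIN3B knockdown (edgeR adjusted p = 0.04), a call lost with upper-quartile scaling, at 0.20 (edgeR adjusted p = 0.0965), and on leaving out any 1 of the 6 control and SIN3B libraries, with log2 values of 0.20 to 0.26 and edgeR adjusted p of 0.0698 to 0.177. It was also lost with the replicate block, at 0.23 (edgeR adjusted p = 0.0604), and with limma on log2 FPKM, at an adjusted p of 0.107 and 0.11. PCNA has 3 annotated pseudogenes and RFC3 has 1.

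The 4 smaller groups have 3 or 4 genes each and held 0 or 1 call in each knockdown. Shares of all genes called were 23.0% (SIN3A) and 23.6% (SIN3B). RPA2, a subunit of the single-strand binding protein RPA, rose by 0.19 ± 0.06 on the log2 scale in the SIN3B knockdown (edgeR adjusted p = 0.035), from 196, 194 and 193 to 233, 219 and 213 CPM, while the SIN3A libraries were at 220.2, 205 and 202 CPM and overlapped those of the SIN3B knockdown. Its call was lost on leaving out any 1 of the 6 control and SIN3B libraries, with log2 values of 0.14 to 0.22 and edgeR adjusted p of 0.0541 to 0.204, with upper-quartile scaling, at 0.15 (edgeR adjusted p = 0.109), and with no filter on low counts, at 0.19 (edgeR adjusted p = 0.0582). RPA3, FEN1 (which trims Okazaki fragments) and LIG1 (which joins them) were called in neither knockdown. LIG1 passed in the SIN3A knockdown without replicate 1 of that group, at 0.26 (edgeR adjusted p = 0.0076), in place of 0.19 ± 0.08 (SE, edgeR adjusted p = 0.068), and with offsets for exon length and GC content, at 0.27 (edgeR adjusted p = 0.00306).

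SLBP (ENSG00000163950, chromosome 4, 1692800 to 1712555 on the minus strand), which binds histone messenger RNA and lets S-phase histones be made, was the called member of the chromatin group. SLBP was at 82.1, 85.7 and 89.0 CPM in the control libraries, 111, 97.9 and 122 CPM in SIN3A knockdown libraries and 98.9, 102 and 97.1 CPM in SIN3B knockdown libraries. All knockdown libraries lay above the controls. SLBP rose by 0.37 ± 0.08 on the log2 scale in the SIN3A knockdown (edgeR adjusted p = 0.0026) and stood at 0.22 ± 0.08 (SE, edgeR adjusted p = 0.059) in the SIN3B knockdown, where it passed the test without SIN3A knockdown replicate 1, 2 or 3, at 0.22 (edgeR adjusted p = 0.0253), 0.22 (edgeR adjusted p = 0.0312) and 0.22 (edgeR adjusted p = 0.0286), and in 3 other settings (0.22 to 0.31, adjusted p of 0.0047 to 0.0409). CHAF1A and CHAF1B, subunits of the chaperone that places histones behind the fork, ran from -0.10 to 0.12 over both knockdowns and were not called.

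Among the fork mediators, CLSPN, the checkpoint adaptor claspin, rose in the SIN3A knockdown and WDHD1, which links the helicase to polymerase alpha, in the SIN3B knockdown. CLSPN gave 56.1, 58.0 and 54.4 CPM in control, 59.6, 73.0 and 66.7 CPM in SIN3A knockdown and 56.4, 60.5 and 58.5 CPM in SIN3B knockdown libraries, with the SIN3A libraries above the controls. Its log2 fold change of 0.24 ± 0.09 (SE, edgeR adjusted p = 0.049) was no longer called on leaving out any 1 library except SIN3A knockdown replicate 1, with log2 values of 0.17 to 0.26 and edgeR adjusted p of 0.0676 to 0.194, or in 9 other settings (0.17 to 0.24, adjusted p of 0.0536 to 0.167), lowest with upper-quartile scaling. WDHD1 gave 55.1, 45.2 and 47.0 CPM in control, 59.6, 50.7 and 56.4 CPM in SIN3A knockdown and 54.9, 61.3 and 62.9 CPM in SIN3B knockdown libraries, which overlapped. Its log2 fold change of 0.28 ± 0.10 (SE, edgeR adjusted p = 0.04) turned to -0.03 (edgeR adjusted p = 0.854) with offsets for exon length and GC content. It was not called without control replicate 2 or 3 or SIN3B knockdown replicate 2 or 3, with log2 values of 0.21 to 0.26 and edgeR adjusted p of 0.135 to 0.211, nor in 4 other settings (0.24 to 0.28, adjusted p of 0.0501 to 0.141) where it stayed positive. TIPIN, partner of TIMELESS at the fork, was at 0.15 ± 0.10 and -0.08 ± 0.10.

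The last group holds regulators of CDT1 and of the anaphase-promoting complex. DTL, the substrate adaptor of the ubiquitin ligase that destroys CDT1 at replicating forks, gave 119, 125 and 126 CPM in control, 141, 139 and 151 CPM in SIN3A knockdown and 125, 127 and 128 CPM in SIN3B knockdown libraries. The SIN3A libraries lay above all others, with a log2 fold change of 0.22 ± 0.07 (SE, edgeR adjusted p = 0.021). That call was lost in 5 other settings (0.15 to 0.22, adjusted p of 0.0517 to 0.117), among them upper-quartile scaling, and without control replicate 1 or 2 or SIN3A knockdown replicate 3, with log2 values of 0.18 to 0.22 and edgeR adjusted p of 0.0649 to 0.0935. GMNN, geminin, which blocks CDT1, and FBXO5, an inhibitor of the anaphase-promoting complex, were called in neither knockdown. FBXO5 was at -0.06 ± 0.08 (SE, edgeR adjusted p = 0.65) in the SIN3A and 0.04 ± 0.08 (SE, edgeR adjusted p = 0.74) in the SIN3B knockdown. With offsets for exon length and GC content it was called lower in both, at -0.26 (edgeR adjusted p = 0.00921) and -0.27 (edgeR adjusted p = 0.00684).

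Set directly against each other, the knockdowns differed in 18 of the 49 members, 6 of which were called in neither knockdown against control. With SIN3A reduced, 5 of 10 licensing genes were higher and 0 lower, and 4 of 8 helicase activation genes were higher and 3 lower. Of all genes, 14.5% were higher and 12.6% lower. In the polymerase (8 genes), chromatin (3 genes) and fork mediator (3 genes) groups 0 were called. TK1 was higher by 1.26 ± 0.09 on the log2 scale (edgeR adjusted p = 3e-09), RRM2 by 1.15 ± 0.07 (edgeR adjusted p = 3e-10) and ORC6 by 0.56 ± 0.09 (edgeR adjusted p = 7e-05). CDT1 differed by 0.40 ± 0.07, MCM10 by 0.40 ± 0.07, GINS2 by 0.38 ± 0.08, CDC6 by 0.36 ± 0.07, CDC45 by 0.31 ± 0.07, GINS4 by 0.30 ± 0.10, RFC2 by 0.28 ± 0.08, MCM7 by 0.23 ± 0.06, LIG1 by 0.21 ± 0.08, DTL by 0.18 ± 0.07 and MCM5 by 0.17 ± 0.06. RFC3 (-0.54 ± 0.09), DBF4 (-0.47 ± 0.10), CDC7 (-0.38 ± 0.07) and GINS1 (-0.36 ± 0.09) were lower with SIN3A reduced.

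In CDC6 the 3 groups did not overlap. CDC6 was at 157, 146 and 159 CPM in the control libraries, 191, 162 and 163 CPM in SIN3A knockdown libraries and 134, 134 and 135 CPM in SIN3B knockdown libraries, with a tight SIN3B group. For CDC45, control libraries were at 153, 157 and 161 CPM, SIN3A knockdown at 187, 169.9 and 165 CPM and SIN3B knockdown at 142, 139 and 141 CPM, again with the controls between. RFC2 gave 112, 124 and 126, 146, 128 and 123 and 108, 109.9 and 110.0 CPM in the same order of groups, with the highest value in replicate 1 of the SIN3A knockdown. LIG1 gave 121, 117 and 107, 122, 143 and 129.9 and 116, 114 and 111 CPM, and its control libraries overlapped those of the SIN3B knockdown and lay just under those of the SIN3A knockdown. The siRNAs left different shares of their targets (32.5% of SIN3A and 57.3% of SIN3B), and the part of that in these differences was not tested. Among members higher with SIN3A reduced, ORC6, CDC6, MCM10, GINS2 and GINS4 held ACAGCCT or CAGCCTT in the 3′ UTR, and the others did not. These letters stood in 26.7% of all UTRs. GINS1, lower with SIN3A reduced, held letters of both kinds. What part the letters have in the direct comparison was not tested.

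Of the 18 calls in the direct comparison, 13 were kept in all 21 alternative settings. MCM5, at 0.17 ± 0.06 (SE, edgeR adjusted p = 0.049), and DTL, at 0.18 ± 0.07 (SE, edgeR adjusted p = 0.047), lay at the threshold. MCM5 was lost on leaving out any library but SIN3A knockdown replicate 1 and SIN3B knockdown replicate 1, with log2 values of 0.14 to 0.18 and edgeR adjusted p of 0.053 to 0.202, and in 8 other settings (0.11 to 0.18, adjusted p of 0.056 to 0.153). DTL was lost on leaving out any but SIN3A knockdown replicates 1 and 2, with log2 values of 0.14 to 0.19 and edgeR adjusted p of 0.0525 to 0.135, and in 9 other settings (0.15 to 0.19, adjusted p of 0.0544 to 0.104). LIG1 was lost without control replicate 1 or 2, SIN3A knockdown replicate 2 or any SIN3B library, with log2 values of 0.15 to 0.24 and edgeR adjusted p of 0.0503 to 0.191, and in 7 other settings (0.15 to 0.22, adjusted p of 0.0559 to 0.0847). GINS4 was lost without SIN3A knockdown replicate 2 or SIN3B knockdown replicate 1 or 3, with log2 values of 0.21 to 0.31 and edgeR adjusted p of 0.068 to 0.162, and with limma in 2 other settings (0.29 to 0.30, adjusted p of 0.0674 to 0.0679). MCM7 was lost without SIN3B knockdown replicate 2, at 0.20 (edgeR adjusted p = 0.0679), and stood at 0.15 (edgeR adjusted p = 0.0477) with offsets for exon length and GC content. PCNA, at -0.20 ± 0.08 (SE, edgeR adjusted p = 0.077), passed without replicate 1 of the SIN3A knockdown, at -0.31 (edgeR adjusted p = 7.18e-05), and in 5 other settings (-0.23 to -0.18, adjusted p of 0.0309 to 0.049). Without that library 18 members were higher and 6 lower, and MCM4 (0.16 (edgeR adjusted p = 0.0153)), POLE (0.23 (edgeR adjusted p = 0.00236)), DUT (-0.25 (edgeR adjusted p = 0.0363)), CHAF1B (0.20 (edgeR adjusted p = 0.0185)) and CLSPN (0.27 (edgeR adjusted p = 0.0164)) passed too. SLBP passed without SIN3A knockdown replicate 2, at 0.24 (edgeR adjusted p = 0.0353). CHAF1B and TIPIN passed without SIN3A knockdown replicate 3, at 0.20 (edgeR adjusted p = 0.0415) and 0.30 (edgeR adjusted p = 0.0355).

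**Figure D4:**
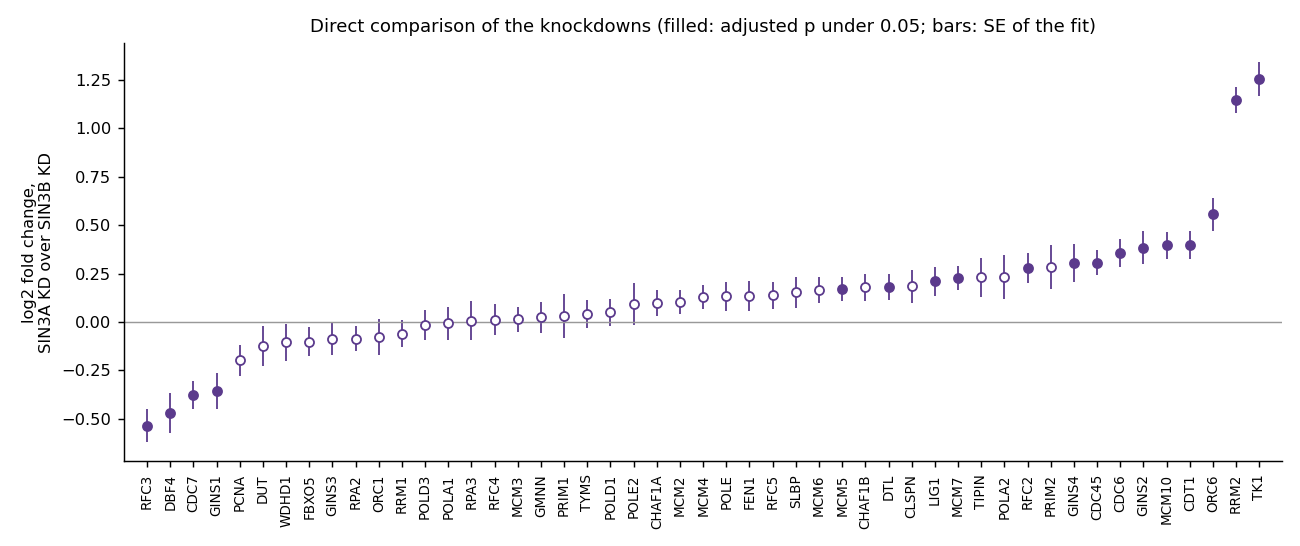
Log2 fold change of each member between the knockdowns, SIN3A over SIN3B, in rising order with the SE of the fit as bars and filled points for called genes. RFC3, DBF4, CDC7 and GINS1 form the low end, and RRM2 and TK1 lie above 1 at the high end.

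Other genes of the same pathway stand outside the set. Of 30 further replication genes, 6 rose and 2 fell in the SIN3A knockdown, 9 rose and 7 fell in the SIN3B knockdown, and 3 were higher and 6 lower in the direct comparison. These were 26.7%, 53.3% and 30% of the list, where 23.0%, 23.6% and 27.1% of all genes were called. The lowest adjusted p in the SIN3A knockdown belonged to 2 histone chaperones and a clamp unloader. RBBP4 fell by 0.61 ± 0.06 on the log2 scale (edgeR adjusted p = 8.8e-07), from 353, 361 and 378 to 233, 240.1 and 240.2 CPM. RBBP4 is also a subunit of the SIN3 complex. NASP rose by 0.44 ± 0.07 (edgeR adjusted p = 7.9e-05), from 424, 470.3 and 432 to 625, 608 and 569.5 CPM, and fell by 0.26 ± 0.07 in the SIN3B knockdown, at 369, 359 and 377 CPM. ATAD5, which unloads PCNA, rose by 0.74 ± 0.13 and 0.64 ± 0.13.

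In the SIN3B knockdown POLE3, a histone-fold subunit of polymerase epsilon, fell by 1.20 ± 0.07 on the log2 scale (edgeR adjusted p = 7.4e-10). POLE3 was at 189, 193 and 202 CPM in the control libraries, 188, 172 and 175 CPM in SIN3A knockdown libraries and 79.7, 87.6 and 85.7 CPM in SIN3B knockdown libraries. The SIN3B libraries were far below the rest, whereas POLE and POLE2, of the same polymerase, were at -0.13 ± 0.07 and 0.02 ± 0.11. The histone chaperone ASF1A rose by 0.76 ± 0.11 and RIF1, which sets the timing of origin firing, by 0.90 ± 0.13 in the SIN3B knockdown, and by 0.49 ± 0.11 and 0.64 ± 0.13 in the SIN3A knockdown.

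Of 31 further nucleotide synthesis genes, 5 rose and 6 fell in the SIN3A knockdown, 4 rose and 6 fell in the SIN3B knockdown, and 6 were higher and 7 lower in the direct comparison. These were 35.5%, 32.3% and 41.9% of the list, where 23.0%, 23.6% and 27.1% of all genes were called. TK2, the mitochondrial thymidine kinase, went from 12.9, 10.8 and 16.5 CPM in control to 4.60, 5.94 and 5.48 CPM in SIN3A knockdown libraries, a log2 fold change of -1.32 ± 0.18 (SE, edgeR adjusted p = 2.8e-05), with the SIN3B libraries at 10.7, 10.8 and 11.0 CPM. Its direction in the SIN3A knockdown was opposite to that of TK1. CMPK1, which phosphorylates CMP and UMP, rose in both knockdowns, from 61.3, 65.9 and 70.4 to 98.9, 87.6 and 111 CPM and 116, 119.6 and 116 CPM. ADSS, of AMP synthesis, rose by 0.45 ± 0.07 and 0.50 ± 0.07. IMPDH1, of GMP synthesis, fell by 0.42 ± 0.07 in the SIN3B knockdown (edgeR adjusted p = 0.00037) and stood at 0.19 ± 0.07 in the SIN3A knockdown.

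Genes of the G2 and M phases were set beside the members, since both groups follow the cell cycle. Of 20 such genes, 16 rose and 1 fell in the SIN3B knockdown, with a median log2 fold change of 0.43, where the 49 members had 5 each way and a median of -0.02. In the SIN3A knockdown 4 of the 20 rose and 2 fell, with a median of -0.02. So 85% of the 20 were called in the SIN3B and 30% in the SIN3A knockdown, where 23.6% and 23.0% of all genes were. TOP2A is counted both here and among the further replication genes. The list's part in the members' values was not tested.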

How the data were processed

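Polyadenylated RNA of 9 HEK293T libraries was analysed, 3 per siRNA group. Groups came from titles and source names, since the treatment field names the control siRNA for all samples. The read counts per Ensembl gene were deposited by the authors, made with Trimmomatic 0.36, HISAT2 2.1.0 on GRCh38 and HTSeq, per the submitters' processing notes, which also name DESeq2 1.20.0. The strand setting is not given in the sources used here. At least 98.0% of nonzero counts in each library were multiples of 4, so the floor is 3 such units, or 12 counts (0.442 to 0.552 CPM, counting error only); all members lay above it. The FPKM values deposited by the authors were used in alternatives only, as log2(FPKM + 1) and log2(FPKM + 0.1).

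Counts were fitted as deposited, all 9 libraries together, in edgeR 4.0.16 (R 4.3.3) with TMM factors, filterByExpr (minimum count 10, minimum total 15) and the robust quasi-likelihood F-test with 6 residual degrees of freedom. All 58734 gene IDs were found in GENCODE 29, 31909 had no count and 16686 were tested. P-values are two-sided and adjusted by Benjamini-Hochberg over all genes tested in each of 3 comparisons, with a threshold of 0.05. The fit was tested on simulated data. The members, the lists and the letters searched were chosen with earlier results of these data known. Values in every library are given for SIN3A, SIN3B and, by role group and comparison, the 2 called members with the lowest adjusted p, and for members called in both knockdowns. The ends of each complex are named too, and of the further genes the 3 with the lowest adjusted p. Members named beyond this rule, such as MCM7 and RRM1, were chosen after their values were seen. Same-numbered libraries showed no shared deviation over the genes tested (correlations of -0.0265 to 0.036), and the main fit pairs no samples. With 3 libraries per group, each centred on its group mean, these correlations cannot exclude a pairing. Alternatives were other scaling factors, no filter, counts divided by 4, a replicate block, offsets for GC content and exon length (mgcv 1.9.3), 6-library fits, DESeq2 1.42.0, limma 3.58.1 on log2 FPKM and leaving out each library. The written test did not set the robust option, which was taken because an earlier analysis of these data used it. The plain fit was added as an alternative after the data were seen. Promoters are from RefSeq and 3′ UTRs from 1 GENCODE transcript per gene. Figures were drawn with matplotlib 3.10.9.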

Additional observations from a re-analysis of the deposited data

Results flagged for a closer look

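TK1, thymidine kinase, was called in opposite directions in the knockdowns, with all 3 libraries of the SIN3A knockdown above and all 3 of the SIN3B knockdown below the control libraries. The direct comparison of the knockdowns put the difference at 1.255 on the log2 scale (edgeR adjusted p = 3e-09). Both knockdowns share the control libraries.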

How the results depend on the processing

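Against control, 5 of 12 called members in the SIN3A and 5 of 10 in the SIN3B knockdown were kept in all 21 alternatives, as were 13 of 18 in the direct comparison. In the SIN3A knockdown, members called higher were 4 with upper-quartile factors (median log2 fold change 0.01144), 14 (and 5 lower) with offsets for exon length and GC content, and 5 with limma on log2 FPKM at either pseudocount. Of all genes, 8.10% were higher there with upper-quartile factors (median -0.07015) and 14.0% (and 11.6% lower) with the offsets. With limma 9.31% and 8.86% were higher. In the SIN3B knockdown, higher and lower members were 2 and 11 with upper-quartile factors (median -0.06169) and 8 and 9 with the offsets. Lower members in the SIN3B knockdown were 9 with no scaling factors, 8 with counts divided by 4, 17 with only the 6 libraries and 10 with DESeq2. The shares of all genes lower in these settings were 11.9%, 15.5%, 16.1% and 7.25%, the last over genes with any count. Higher members were 3 with limma at either pseudocount, where 9.64% and 9.39% of all genes were higher. The plain fit gave 7 higher members in the SIN3A knockdown and 12 in the direct comparison and moved no other of these counts. It called 12.0% and 14.4% of all genes higher in these comparisons. Leaving out each library in turn gave 4 to 11 higher and 1 to 4 lower members in the SIN3A knockdown (median 0.04988 to 0.1172), 2 to 6 higher and 3 to 11 lower in the SIN3B knockdown (median -0.04849 to -0.01515), and 10 to 18 higher and 4 to 6 lower in the direct comparison. Over the same fits 15.3% to 22.8% (SIN3A), 15.5% to 27.5% (SIN3B) and 19.6% to 27.9% (direct) of all genes were called. Under the same offsets, WDHD1 in the SIN3B knockdown turned to -0.0298 (edgeR adjusted p = 0.854) and FBXO5 to -0.2734 (edgeR adjusted p = 0.00684), FBXO5 and RFC3 in the SIN3A knockdown were called lower at -0.255 (edgeR adjusted p = 0.00921) and -0.2261 (edgeR adjusted p = 0.0192), and RFC3 in the SIN3B knockdown stood at 0.2132 (edgeR adjusted p = 0.03). The replicate block gave 7 higher and 3 lower members (SIN3A), 4 and 5 (SIN3B) and 11 and 4 (direct), although the sample titles state no pairing. It called 20.8%, 21.9% and 25.4% of all genes. The cause of these moves was not tested.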
